A study of Mus musculus with 6 samples.

Results

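The SWI/SNF subunits described here are 10 genes, *Smarca2*, *Smarca4*, *Smarcb1*, *Smarcc1*, *Smarcc2*, *Smarcd3*, *Arid1a*, *Arid1b*, *Arid2* and *Pbrm1*, of 22907 genes named on the array. They were taken by name, and their probes were found through the RefSeq accession that the scanner output gives for each probe. All 10 genes had probes well above background and were tested. SWI/SNF complexes are chromatin remodelers that use ATP to slide or eject nucleosomes, and so open enhancers and promoters to transcription factors. Each complex holds 1 ATPase, encoded by *Smarca4* (BRG1) or *Smarca2* (BRM), on a shared core of scaffold subunits, and is completed as BAF by an ARID1 subunit or as PBAF by ARID2 and the bromodomain protein PBRM1. In the nervous system some subunits are exchanged for others as neural progenitors become neurons, and subunit genes are often mutated in human cancers.

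RNA was compared between WT cells and IG27 cells. Both derive from OS3, an immortalized glial line with SV40 that was established from newborn mice of strain C3H (C3H/HeN in the methods), labeled male. WT cells (OS3-vector) carry the empty vector, and IG27 cells (OS3-H3F3A_K27M) were transfected with a plasmid for histone H3.3 with a lysine-to-methionine change at lysine 27 (H3.3K27M), with clones established by drug selection. Each group was 3 samples, all cultured for 2 days in the same medium with GlutaMAX, fetal bovine serum, insulin and D-glucose. The labels do not say that the 3 samples of a group came from separate transfections or clones, so the p-values measure the spread between samples of 1 line, which may be technical, and the mutant histone cannot be told apart from other differences between the lines. Nor can fewer cells with a transcript be told apart from less of it per cell in these bulk samples.

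Each sample was hybridized to 1 single-color Agilent array of the same slide, and between 33294 and 34633 probes (58.8% to 61.2%) were well above background on the 5 arrays with complete scanner output. The scanner output of IG27 replicate 2 is cut short, and its values come from the deposited value table. Values below are log2 intensities minus the 75th percentile of the array, so a difference of 1 is 2-fold and a negative level only means a signal below that percentile. Levels are not compared between genes, since probes differ in brightness. Of the glial markers, *Gfap*, an astrocyte filament protein, was well above background in both groups, whereas the astrocyte transporter gene *Slc1a3* was not in WT cells. All 4 oligodendrocyte markers were well above background in both groups, but so were 3 of 4 neuronal and at least 3 of 5 microglial markers, so the marker lists do not single out 1 glial type. The markers also differed between the lines in both directions. Of 7 astrocyte markers tested, 2 were higher (*S100b*, with a log2 fold change of 4.93, and *Slc1a3*) and 3 lower in IG27 cells (*Gfap* -1.07, *Aldh1l1* and *Slc1a2*), and the log2 of their summed levels ran from 6.62 to 6.76 in WT and from 5.85 to 6.05 in IG27 cells. Of 5 oligodendrocyte precursor markers, 3 were higher (*Pdgfra* 2.36, *Olig2* 1.51 and *Olig1* 1.48) and 1 lower (*Sox10* -0.37), with sums of 5.87 to 5.95 and 5.85 to 5.89. The sums mainly follow the brightest probes, here *Sox10* (5.77 in WT cells) and among astrocyte markers *Gfap* (6.64). They do not show the changes of dimmer markers. Of 4 oligodendrocyte markers, 1 was higher and 1 lower, with sums of 3.80 to 3.93 and 4.12 to 4.18. Of 4 microglial markers tested, 3 were higher and 1 lower, with sums of 3.64 to 3.78 and 3.73 to 3.79. Of 3 neuronal markers tested, *Tubb3* was lower (-2.63) and the others were not called, with sums of 4.20 to 4.37 and 2.92 to 3.06, and the neuronal marker *Rbfox3* was not well above background. Of 2 fibroblast markers tested, *Dcn* was higher and *Col1a1* lower, with sums of 6.83 to 6.86 and 5.88 to 5.998. Of the markers called higher, *Slc1a3*, *Dcn* and the microglial *Aif1* were not well above background throughout WT cells. They entered the test through IG27 cells alone, the group in which they were higher. The endothelial marker *Pecam1* was lower (-0.27), and *Cdh5* and *Cldn5* were not well above background. Whether marker differences take part in the results below was not tested.

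The sequences upstream of the start sites of 4 subunits are shown because their RNA gave the largest differences of the 10 (*Smarca2*, *Pbrm1*, *Smarcc1*) or is the counterpart ATPase of the gene that rose (*Smarca4*). They are the 250 bases before the RefSeq start site in GRCm38.p6, 5′ to 3′ on the gene's strand, with matches to the motifs listed below in capitals.

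*Smarca2*, chr19:26604910-26605159, plus strand: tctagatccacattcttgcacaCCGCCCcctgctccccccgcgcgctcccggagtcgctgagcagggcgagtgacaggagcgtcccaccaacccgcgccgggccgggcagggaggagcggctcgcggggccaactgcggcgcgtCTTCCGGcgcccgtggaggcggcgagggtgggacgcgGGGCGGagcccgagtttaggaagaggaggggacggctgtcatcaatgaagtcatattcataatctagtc

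*Smarca4*, chr9:21615919-21616168, plus strand: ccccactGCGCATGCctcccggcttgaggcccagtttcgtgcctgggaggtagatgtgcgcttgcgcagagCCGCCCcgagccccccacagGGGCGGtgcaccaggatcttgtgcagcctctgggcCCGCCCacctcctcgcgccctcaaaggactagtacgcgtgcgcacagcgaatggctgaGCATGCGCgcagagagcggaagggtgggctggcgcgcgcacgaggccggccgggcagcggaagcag

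*Smarcc1*, chr9:110131774-110132023, plus strand: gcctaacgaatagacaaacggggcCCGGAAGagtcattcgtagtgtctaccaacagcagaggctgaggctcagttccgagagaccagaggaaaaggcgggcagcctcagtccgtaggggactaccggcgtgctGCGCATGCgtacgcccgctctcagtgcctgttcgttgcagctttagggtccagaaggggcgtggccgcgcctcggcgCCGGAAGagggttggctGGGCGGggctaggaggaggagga

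*Pbrm1*, chr14:31018888-31019137, plus strand: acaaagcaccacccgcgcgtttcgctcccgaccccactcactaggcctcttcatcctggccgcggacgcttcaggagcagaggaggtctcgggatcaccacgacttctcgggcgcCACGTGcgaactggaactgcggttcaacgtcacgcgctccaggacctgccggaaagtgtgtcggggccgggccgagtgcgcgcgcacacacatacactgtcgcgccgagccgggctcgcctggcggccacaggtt

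These windows are rich in G and C and in CpG. Of the 10 subunits, 9 had a window and *Arid1a* had 2 of them, which gave 10 windows, and no entry was found for *Arid2*. Their GC content ran from 59.6% (*Smarcb1*) to 81.6% (*Arid1a*) beside a median of 52.4% over 32851 windows of the same length, and they held 18 to 40 CpG beside a median of 6. The GC box GGGCGG was present in 8 of the 10 windows, both of *Arid1a* among them, and in 32.7% of all windows. All motifs were searched on both strands. The shares over all windows were not matched for GC content, and only 28.9% of all windows reached the 59.6% of *Smarcb1*. They therefore do not separate a motif from base composition. The *Smarca2* window held it 2 times and the *Smarca4* window 3 times, whereas the *Pbrm1* window held none. The letters of the ETS core, CCGGAAG, were found in the windows of *Smarca2* and *Smarcc1* and in 6.91% of all windows. The NRF1 core, GCGCATGC, was found in those of *Smarca4* and *Smarcc1* and in 2.26% of all windows. The E-box CACGTG was in the window of *Pbrm1* and in 6.02% of all. None of the 10 windows held CCAAT (33.8% of all windows), TATAAA (12.4%) or the YY1 core AAGATGG (4.49%). No motif contains the letters of another. *Smarca2*, which rose, and *Smarcc1*, which fell, both held a GC box and an ETS core. A match describes these letters only.

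Of the 10 subunits, 2 rose and 4 fell in IG27 cells, and 4 did not pass the test (two-sided limma, with Benjamini-Hochberg adjustment over 14882 genes and a threshold of 0.05). *Smarca2* rose by the largest amount and *Pbrm1*, *Smarcc1*, *Smarcc2* and *Smarcb1* fell. *Arid2* rose slightly, and *Smarca4*, *Smarcd3*, *Arid1a* and *Arid1b* were not called. The comparison as a whole was broad, as 70.5% of all genes tested were called, 30.5% higher and 40% lower, so 6 of 10 is near the share for any gene. The groups did not overlap for 7 of the 10 subunits and for 75.8% of all genes. A change that was both called and at least 2-fold was found for *Smarca2* alone among the 10 and for 23.1% of all genes. The median log2 fold change of the 10 was -0.26, and that of all genes was -0.07.

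**Figure D1:**
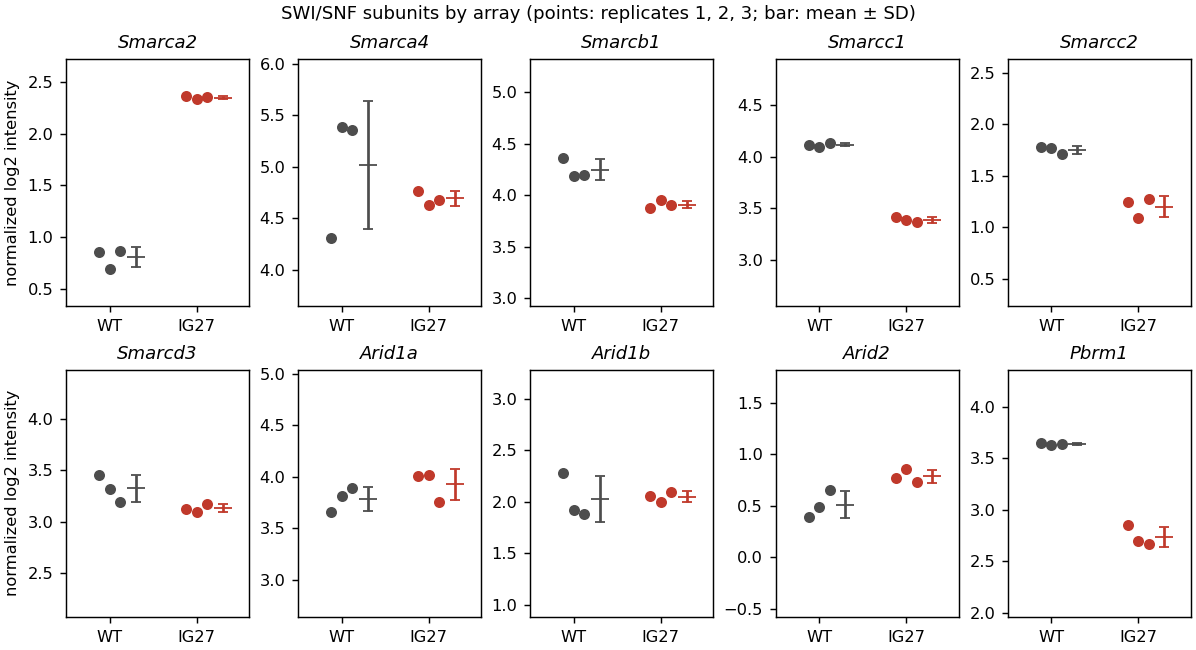
Normalized log2 intensity (vertical axis) of the 10 SWI/SNF subunits, with a panel for each gene. Points are replicates 1, 2 and 3 of WT (gray) and IG27 cells (red), bars give the mean and SD, and each panel spans the same range. The 3 IG27 points of *Smarca2* (2.33 to 2.36) lie above all WT points (0.69 to 0.87), those of *Pbrm1* (2.67 to 2.85) lie below all WT points (3.63 to 3.65), and WT replicate 1 of *Smarca4* (4.30) lies apart from the other WT points.

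The ATPases were read first, since each complex holds only 1 of them. *Smarca2*, which encodes BRM, had levels of 0.85, 0.69 and 0.87 in WT cells (replicates 1, 2 and 3, an order kept throughout) and of 2.36, 2.33 and 2.36 in IG27 cells. Every IG27 value was well above every WT value. The log2 fold change was 1.55 ± 0.06 (SE, n = 3 per group; limma, adjusted p = 3.38e-06), a 2.92-fold rise with a 95% interval of 1.39 to 1.70 on the log2 scale. Its absolute change was larger than that of 86.8% of the genes tested. The 2 other *Smarca2* probes rose by more, by 1.85 and 1.90, and both passed at the probe level (adjusted p = 2.78e-05 and 1.92e-05 from limma over all probes), where 64.2% of 34036 probes were called. Probes of a gene were read from the same samples on the same arrays and are not replicates. The *Smarca2* probes at 1.55 and 1.85 were assigned to 1 RefSeq transcript and that at 1.90 to another. For *Smarca4* below, the brightest probe was assigned to 1 transcript and the 2 others to another. Probes of different transcripts need not read the same RNA.

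*Smarca4*, which encodes BRG1, had levels of 4.30, 5.38 and 5.36 in WT cells and of 4.77, 4.63 and 4.68 in IG27 cells on its brightest probe. WT replicate 1 was below all IG27 arrays and the other WT arrays were above them, so the groups overlapped. The log2 fold change was -0.32 ± 0.30 (SE; limma, adjusted p = 0.360), with an interval of -1.05 to 0.40. This value turned on single WT arrays, as it was -0.68 without WT replicate 1 (adjusted p = 0.000421 from limma), -0.14 without WT replicate 2 (adjusted p = 0.712) and -0.15 without WT replicate 3 (adjusted p = 0.694). The second probe did not show the low value in WT replicate 1, with 0.56, 0.59 and 0.45 in WT and -0.35, -0.23 and -0.15 in IG27 cells, and here the groups did not overlap. Its log2 fold change was -0.77 (adjusted p = 0.000217 from limma over all probes). The third and dimmest probe gave -0.63 and was not called (adjusted p = 0.135 from limma over all probes). All 3 probes of *Smarca4* were thus lower in the IG27 mean, and with their mean in place of the brightest probe the gene was called lower at -0.58 (adjusted p = 0.0211 from limma).

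**Figure D2:**
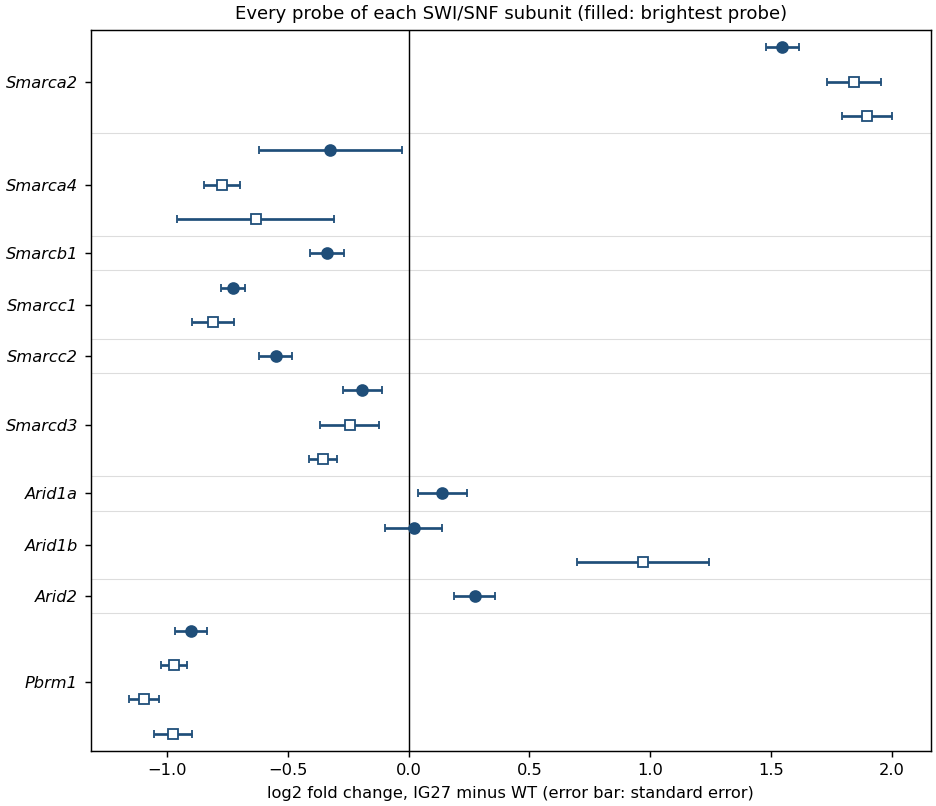
Log2 fold change of IG27 minus WT cells (horizontal axis) for all 21 probes of the 10 subunits, with standard errors from limma; filled circles are the brightest probe of each gene and open squares the others. The 3 *Smarca2* probes lie between 1.55 and 1.90, the 4 *Pbrm1* probes between -1.10 and -0.90, and the 2 *Arid1b* probes lie apart at 0.02 and 0.97.

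The core subunits hold the complex together. *Smarcc1*, *Smarcc2*, *Smarcb1* and *Smarcd3* had a lower mean in IG27 cells, and all but *Smarcd3* were called lower, as were 40% of all genes. None of the other core subunits tested, described further below, was called lower. *Smarcd1* was called higher (log2 fold change 0.77), and *Smarcd2* (0.08) and *Smarce1* (-0.12) were not called. *Smarcc1*, which encodes the scaffold protein BAF155, had levels of 4.12, 4.10 and 4.13 in WT and 3.42, 3.38 and 3.36 in IG27 cells. Arrays within a group differed by less than 0.1 and the groups were far apart, with a log2 fold change of -0.73 ± 0.04 (SE; limma, adjusted p = 1.82e-05), 1.66-fold lower. Its second probe gave -0.81 and was called as well. *Smarcc2*, which encodes the related scaffold protein BAF170, had levels of 1.78, 1.77 and 1.71 in WT and 1.24, 1.09 and 1.27 in IG27 cells, also with no overlap. It fell by 0.55 on the log2 scale (SE 0.06; limma, adjusted p = 0.000374), 1.47-fold. *Smarcb1*, which encodes the nucleosome-binding subunit BAF47 (a tumor suppressor in rhabdoid tumors), had levels of 4.36, 4.18 and 4.20 in WT and 3.88, 3.95 and 3.90 in IG27 cells. The groups did not overlap and the log2 fold change was -0.34 ± 0.06 (SE; limma, adjusted p = 0.00371), 1.27-fold lower.

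*Smarcd3*, which encodes BAF60C, the BAF60 form best known from heart and muscle, had levels of 3.46, 3.32 and 3.20 in WT and 3.13, 3.09 and 3.17 in IG27 cells. The lowest WT array was above the highest IG27 array by little. The log2 fold change was -0.19 ± 0.08 (SE; limma, adjusted p = 0.0624) and did not pass. Its 2 other probes gave -0.25, not called, and -0.35, called (adjusted p = 0.00241 from limma over all probes). The gene passed with the mean of its probes, with normexp background correction, with eBayes with a trend, at an unadjusted p of at most 0.05 and without WT replicate 3 (-0.26; limma, adjusted p = 0.0221). It did not pass in the other 12 of 17 alternative settings. Quantile normalization gave -0.03 (adjusted p = 0.759 from limma), and leaving out WT replicate 1 gave -0.13 (adjusted p = 0.152 from limma).

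The ARID1 subunits complete BAF and were not called. *Arid1a*, which encodes BAF250A, had levels of 3.66, 3.81 and 3.89 in WT and 4.01, 4.02 and 3.75 in IG27 cells. IG27 replicate 3 lay within the range of WT cells, and the log2 fold change was 0.14 ± 0.10 (SE; limma, adjusted p = 0.249), with an interval of -0.10 to 0.38. Only quantile normalization, of the settings tried, called it, at 0.29 (adjusted p = 0.0289 from limma). *Arid1b*, which encodes BAF250B, had levels of 2.28, 1.92 and 1.88 in WT and 2.05, 1.99 and 2.10 in IG27 cells, and all IG27 arrays lay within the WT range. Its log2 fold change was 0.02 ± 0.11 (SE; limma, adjusted p = 0.885), with an interval of -0.26 to 0.30. The second *Arid1b* probe, which was well above background on 2 of 3 WT arrays, had levels of -4.87, -5.00 and -5.91 in WT and -4.27, -4.33 and -4.27 in IG27 cells. It passed the filter only through the IG27 arrays, the group in which it was higher. The value of -5.91 was close to the lowest signal well above background on that array (-6.01). The probe gave 0.97 (adjusted p = 0.0207 from limma over all probes), and no rise of the gene is read from it. The mean of both probes was called (0.50, adjusted p = 0.0460 from limma), a call that rests on this dim probe.

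The PBAF subunits moved in opposite directions. *Pbrm1*, which encodes the bromodomain protein BAF180, had levels of 3.65, 3.63 and 3.64 in WT and 2.85, 2.70 and 2.67 in IG27 cells. The WT arrays were nearly equal and all IG27 arrays lay below them. The log2 fold change was -0.90 ± 0.06 (SE; limma, adjusted p = 3.31e-05), 1.87-fold lower, with an interval of -1.06 to -0.75. Its 4 probes ranged from -1.10 to -0.90 and all were called. *Arid2*, which encodes BAF200, the subunit that PBAF has in place of ARID1, had levels of 0.39, 0.49 and 0.66 in WT and 0.77, 0.85 and 0.73 in IG27 cells. The highest WT array came close to the lowest IG27 array, and the log2 fold change was 0.27 ± 0.08 (SE; limma, adjusted p = 0.0235), a 1.21-fold rise. The call was lost without WT replicate 1 (0.21, adjusted p = 0.0615 from limma), WT replicate 2 (0.26, adjusted p = 0.0650), IG27 replicate 1 (0.28, adjusted p = 0.0603) or IG27 replicate 2 (0.24, adjusted p = 0.0762).

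Within the slide, WT replicate 2 shared a row with all 3 IG27 arrays, while WT replicates 1 and 3 were in the other row. Against WT replicate 2 alone, the log2 differences were 1.66 for *Smarca2*, -0.89 for *Pbrm1*, -0.71 for *Smarcc1*, -0.57 for *Smarcc2* and -0.27 for *Smarcb1*, and all 5 calls held with the row as a block. *Smarca4* differed by -0.69 in that row and was not called (adjusted p = 0.188 from limma), and *Arid2* differed by 0.29 and lost its call (adjusted p = 0.0962 from limma).

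Of the 21 other subunits listed, 17 were tested, 4 were higher, 7 were lower and 6 did not pass, which is 64.7% called beside the 70.5% of all genes. The median log2 fold change of the 17 was -0.04. The largest falls were those of *Brd7* and *Brd9*. *Brd7*, a PBAF subunit, had levels of 4.30, 4.25 and 4.27 in WT and 3.36, 3.26 and 3.16 in IG27 cells. Its log2 fold change was -1.01 ± 0.06 (SE; limma, adjusted p = 2.27e-05), and all 4 of its probes were called lower, from -1.01 to -0.62. *Brd9*, which marks the noncanonical BAF complex that lacks *Smarcb1*, had levels of 2.84, 2.85 and 2.76 in WT and 1.95, 1.73 and 1.78 in IG27 cells. It fell by 0.99 on the log2 scale (SE 0.07; limma, adjusted p = 4.28e-05), and its second probe by 1.02. *Phf10*, the PHD finger subunit of PBAF, rose instead, with levels of 2.68, 2.64 and 2.84 in WT and 3.40, 3.34 and 3.21 in IG27 cells and a difference of 0.60 ± 0.08 (SE; limma, adjusted p = 0.000755).

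The genes that bind or accompany the ATPase divided. *Actl6a*, the actin-related subunit of progenitor cells, fell by 0.54 on the log2 scale (adjusted p = 0.000292 from limma), and its neuronal counterpart *Actl6b* was not well above background and was not tested. *Actb*, which encodes the actin that is also a subunit, gave -0.20 (adjusted p = 0.0261 from limma), a call that was lost in 9 of 17 alternative settings. Of the BCL7 genes, *Bcl7a* fell by 0.24 (limma, adjusted p = 0.00414), whereas *Bcl7b* and *Bcl7c* rose by 0.26 and 0.27 (limma, adjusted p = 0.0019 and 0.00185). The other *Bcl7b* probes gave 0.998 (called) and 0.19 (adjusted p = 0.0502 from limma over all probes, not called). *Ss18*, which is fused in synovial sarcoma, and its relative *Ss18l1* gave 0.10 and 0.14 and were not called.

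Among the forms of the BAF60 and BAF45 subunits, *Smarcd1* (BAF60A) had levels of -2.09, -1.74 and -1.79 in WT and -1.31, -1.05 and -0.96 in IG27 cells, with no overlap. It rose by 0.77 on the log2 scale (SE 0.13; limma, adjusted p = 0.00214), whereas *Smarcd2* (BAF60B) gave 0.08 and was not called. *Dpf1*, a BAF45 form of neurons, fell by 0.80 (adjusted p = 0.000350 from limma), while *Dpf2*, the widely expressed form, gave -0.04 and was not called. *Dpf3* was not tested, nor were the zinc finger subunits *Bcl11a* and *Bcl11b*, since no probe of theirs was above background throughout either group. The DNA-bending subunit *Smarce1* (BAF57) gave -0.12 and was not called. *Bicra*, a noncanonical BAF subunit, gave -0.30 (adjusted p = 0.0254 from limma) on its brightest probe and 0.02 on its other, and lost the call in 9 of 17 settings, and its relative *Bicral* gave 0.11, not called.

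**Figure D3:**
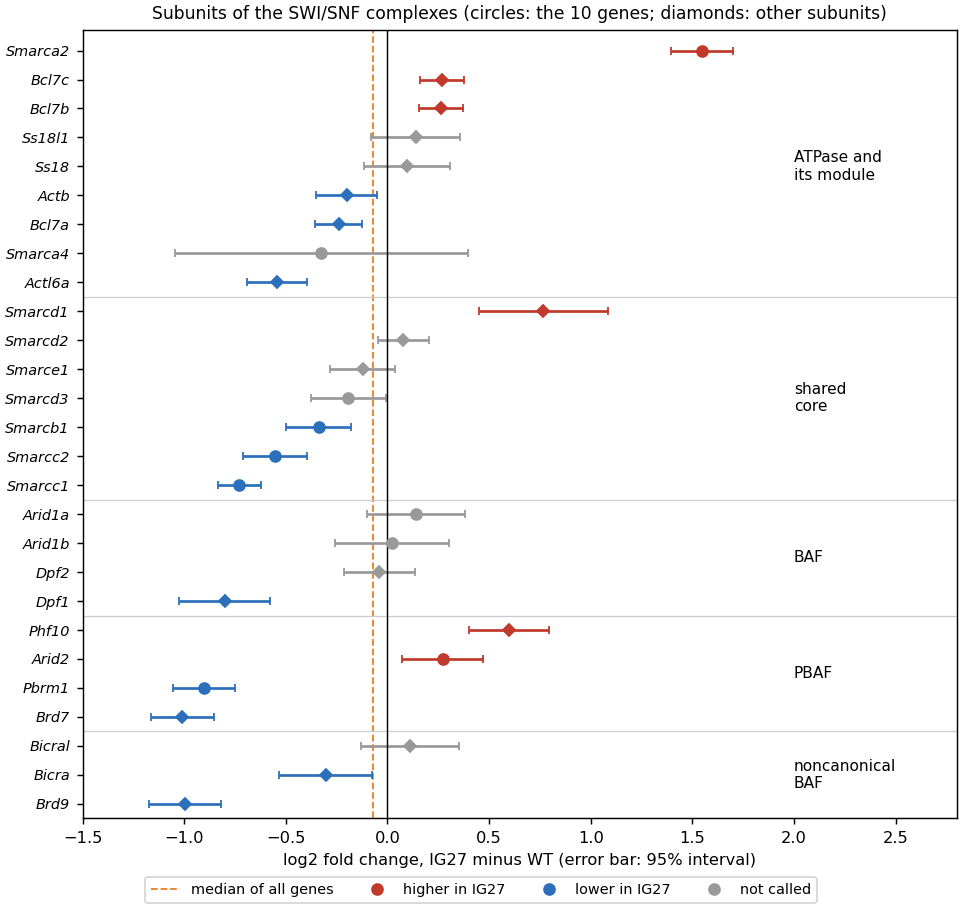
Log2 fold change of IG27 minus WT cells with 95% intervals from limma (horizontal axis) for the 27 tested SWI/SNF subunits, grouped by their place in the complexes. Circles are the 10 subunits and diamonds the others, colored by the call, and the dashed line is the median of all genes (-0.07). Within PBAF, *Brd7* and *Pbrm1* lie at -1.01 and -0.90 and *Phf10* and *Arid2* at 0.60 and 0.27.

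Over all 31 subunits, 27 were tested, 6 were higher and 11 lower (63% called). Counted by complex, the genes particular to PBAF were all called (*Pbrm1* and *Brd7* lower, *Phf10* and *Arid2* higher), and of the 4 tested genes particular to BAF only *Dpf1* was, beside 70.5% of all genes. The call of *Arid2* was lost in 7 of 17 alternative settings. These are counts of few genes, and the difference between complexes was not tested.

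Related subunits can stand in for each other in the complex, so the log2 ratio of such pairs within an array was compared. The pair of *Arid2* and *Arid1a* differs from the others, since ARID2 belongs to PBAF and ARID1 to BAF. Its ratio is not that of subunits exchanged within a complex. This ratio does not depend on scaling between arrays by the 75th percentile. With 3 arrays against 3 an exact permutation test (two-sided, 20 relabelings) cannot give a p below 0.1, and p-values were adjusted over 6 pairs. The ratio of *Smarca4* over *Smarca2* changed most, by -1.87 (standard error 0.39), a 3.66-fold fall, with the arrays of the groups apart (p = 0.1, adjusted p = 0.15, exact permutation test). It was -2.25 without WT replicate 1 and -2.34 with the mean of each gene's probes. *Smarcd3* over *Smarcd1* fell 1.94-fold, by 0.96 on the log2 scale (p = 0.1, adjusted p = 0.15, exact permutation test). *Smarcd3* over *Smarcd2* changed by -0.27 and *Smarcc1* over *Smarcc2* by -0.18, both with the groups apart (p = 0.1, adjusted p = 0.15, exact permutation test). *Arid2* over *Arid1a* changed by 0.13 (p = 0.2, adjusted p = 0.24, exact permutation test) and *Arid1a* over *Arid1b* by 0.12 (p = 0.6, adjusted p = 0.6, exact permutation test), and for both the arrays of the groups overlapped. *Smarcc1* and *Smarcc2* both fell, so their ratio moved little, whereas 1.55 of the change in the ATPase ratio came from *Smarca2*.

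**Figure D4:**
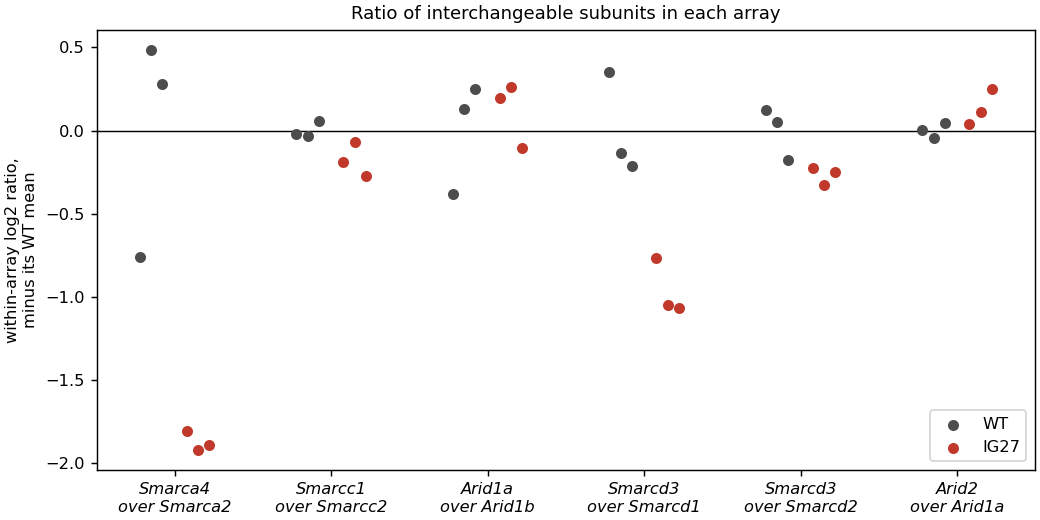
Within-array log2 ratio of 6 pairs of subunits, minus the WT mean of the pair (vertical axis). Each WT (gray) and IG27 array (red) has a point. *Arid2* and *Arid1a* belong to different complexes, PBAF and BAF. For *Smarca4* over *Smarca2* all 3 IG27 arrays lie below the WT arrays, with a mean change of -1.87, and for *Arid1a* over *Arid1b* the points of the groups mix.

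The chromosomes differed in their shift between the lines, so each subunit was set beside the tested genes of its chromosome. Chromosome 9, which holds *Smarca4* and *Smarcc1*, had a median log2 fold change of -0.64 over 813 genes, and 71.1% of its genes were called lower. *Smarcc1* differed from that median by -0.09 and *Smarca4* by 0.31. Chromosome 8, which holds *Brd7*, had a median of -0.67 over 768 genes, and *Brd7* differed from it by -0.34. *Arid2* lay close to the median of chromosome 15 (0.30), and *Arid1a* differed by -0.20 from that of chromosome 4 (0.33). Of the 10 subunits, the others that were called differed from their chromosomes by more. *Smarca2* was 1.37 above the median of chromosome 19 (0.18), *Pbrm1* differed by -0.62 from that of chromosome 14 (-0.28), and *Smarcc2* and *Smarcb1* by -0.64 and -0.42 from that of chromosome 10 (0.08). *Pbrm1* and *Smarcb1* were still within the middle 50% of their chromosomes' genes, whose lower quartiles were -0.998 and -0.35. The part of the chromosome shifts in the differences of single genes was not tested.

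**Figure D5:**
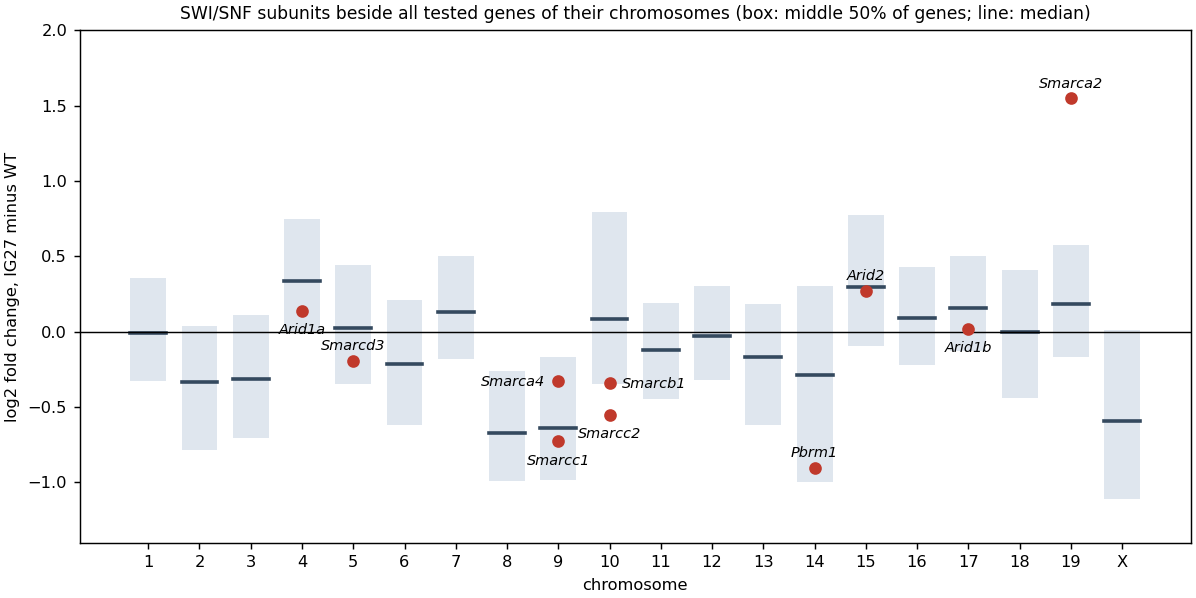
Log2 fold change of IG27 minus WT cells (vertical axis) by chromosome (horizontal axis); boxes hold the middle 50% of the tested genes, dark lines are medians, and red points are the 10 subunits. *Smarca2* (1.55) lies above the box of chromosome 19, and *Smarcc1* (-0.73) lies near the median of chromosome 9 (-0.64).

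Genes of other ATP-dependent remodelers were counted the same way. Of 42 listed, 40 were tested, 13 were higher and 20 lower, or 82.5% beside 70.5% of all genes, with a median log2 fold change of -0.15. By family, 9 of 9 ISWI genes, 11 of 16 CHD and NuRD genes and 13 of 15 INO80 and SRCAP genes were called, against the same 70.5%. *Chd7*, *Chd5* and *Chd3* changed by more than any SWI/SNF subunit. *Chd7*, a remodeler of neural progenitors and oligodendrocyte precursors, rose from -5.01, -4.80 and -4.89 in WT to -0.45, -0.46 and -0.45 in IG27 cells (log2 fold change 4.45), and *Chd5*, a neuronal NuRD ATPase, rose by 3.86. Both were dim in WT cells, with a mean of -4.36 for *Chd5*, though well above background on all 3 WT arrays. The lowest signals well above background on those arrays were -5.77, -5.53 and -6.01. *Chd3*, another NuRD ATPase, fell by 2.25 and *Gatad2a*, a NuRD scaffold gene, by 1.27 (limma, adjusted p of 6.08e-06 for *Gatad2a*, the highest of the 4). No test of the difference between the families was made.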

How the data were processed

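RNA expression of 3 WT and 3 IG27 samples was measured with one-color (Cy3) Agilent mouse arrays on 1 slide. The authors read spots with Feature Extraction (version 10.7.3.1 per the file headers, 9.1 in the submitters' notes) and deposited the processed signal, a linear intensity, in scanner files and a value table. The scanner file of IG27 replicate 2 ends after 285 of 62976 spots, so the table was used for that array, since its 255 complete single-spot probes were equal (relative tolerance 1e-04). The table exchanges WT replicates 2 and 3, and the scanner labels were kept.

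Values were log2 of the processed signal minus the 75th percentile of the array, without outlier spots (107 to 210 per complete array). No spot was saturated on the complete arrays. Outlier and saturation flags were lacking for most spots of IG27 replicate 2. RefSeq accessions named 32989 of 56605 probes for 22907 genes (GRCm38.p6 table, used for names and chromosomes). Probes entered where all complete arrays of WT or of IG27 cells were well above background, and the brightest of them stood for its gene. Groups were compared with limma (version 3.58.1, R 4.3.3, two-sided, no block), Benjamini-Hochberg adjustment over all genes and a threshold of 0.05. The fit was tested on simulated data, where it recovered 2% of log2 changes of 0.25, 32% of 0.5, 74% of 1 and 92% of 2. Far fewer genes changed there than were called in the data, so these shares need not hold for the data. A gene that was not called is not shown to be unchanged. The number of arrays limits the precision. The 10 genes, the lists of other subunits, remodelers and markers, and the rule for named genes (all subunits, and the 2 largest rises and falls among other remodelers) were chosen with earlier results of these data known. The deviations of same-numbered samples correlated at 0.01, 0.04 and 0.08, so numbers were not taken as pairs. Motifs were searched in RefSeq's promoter table. Alternatives covered the value source, normalization, background, filters, probe choice, moderation, threshold, blocks and each array left out.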

Additional observations from a re-analysis of the deposited data

How the results depend on the processing

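Complete arrays only and leaving out IG27 replicate 2 are the same fit and were counted once. All 17 alternative settings kept the calls and directions of *Smarca2* (1.49 to 1.76), *Pbrm1* (-0.99 to -0.75), *Smarcc1* (-0.77 to -0.57), *Smarcc2* (-0.59 to -0.39) and *Smarcb1* (-0.37 to -0.19). The number of the 10 subunits called ran from 5 to 9. The number called higher was 1 in place of 2, through the loss of *Arid2*, with complete arrays only, normexp, no filter on dim probes or the slide row as a block, and it ran from 1 to 2 when each replicate was left out. *Arid2* then gave 0.24 (adjusted p = 0.0762), 0.25 (0.0509), 0.27 (0.0556) and 0.29 (0.0962) from limma in those 4 settings. Directions turned for uncalled values only. *Arid1b* was -0.034 without WT replicate 2, -0.0531 without WT replicate 3 and -0.0033 without IG27 replicate 3 (-0.0531 to 0.15 over all replicates left out in turn). *Smarce1* was 0.0178 and *Dpf2* 0.11 with quantile normalization, and *Dpf2* ran from -0.0914 to 0.0236 over the replicates left out, the latter without IG27 replicate 3. The ratio of *Arid1a* over *Arid1b* was -0.0585 with normexp, -0.36 when a gene's probes were averaged and -0.0715 without WT replicate 1 (-0.0715 to 0.24 over the replicates left out). The cause was not tested. Of the values of the 10 subunits over these settings, 151 kept direction and call, 9 gained a call, 7 lost it and 3 turned direction. With the replicate number as a block, 6 of the 10 subunits were called as before, 10302 of all genes passed in place of 10494, and the one subunit call that changed was *Bicra* (-0.30, adjusted p = 0.0711 from limma). Over all genes 8941 to 10848 were called. Naming probes by the gene name column was not run, since the scanner files used here lack that column, and they lack the mean signal, so normexp was run on median signals of the 5 complete arrays. Ratios were not recomputed under the trend or the unadjusted p, which do not enter them, nor under the blocks. The slide row would change them. With the row as a block *Smarca4* gave -0.69 and *Smarca2* 1.66, beside -0.32 and 1.55 in the main fit. Signal over background limits the second *Arid1b* probe and the untested subunits.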
